A study of Mus musculus with 2 samples.

Results

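The genes described here are 10 markers by which subtypes of cortical interneurons are told apart, out of 21938 protein-coding genes in the annotation. They are the peptide genes Sst, Npy, Vip, Cck, Tac1 and Crh, the calcium-binding protein genes Pvalb, Calb1 and Calb2, and Reln. The genes were taken by name, and open chromatin was read around them in 2 ways. Peaks and footprints were counted within 500 bp of every annotated start of a gene, 33 distinct starts in all, and distal peaks were counted in the gene body with flanks of 50 kb. The tissue was left cerebral cortex, profiled by DNase-seq in 2 females of the B6CASTF1/J cross at an age of 10 days, which the labels give as biological replicates 1 and 2. B6CASTF1/J is the F1 hybrid of the C57BL/6J laboratory strain and the wild-derived CAST/EiJ strain, so each animal carries a CAST/EiJ copy of every autosome, while positions are on the mm10 reference of C57BL/6J. Both libraries belong to 1 group with no treatment, other age or sorted cells, so no conditions were compared and no p-value is given. The members are therefore described by their values in each library beside the same values over all protein-coding genes.

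Cortical interneurons release GABA and form a minority of cortical neurons. Sst cells mostly contact dendrites, Pvalb cells are fast-spiking and contact cell bodies and axon initial segments, and many Vip cells inhibit other interneurons. Several of these genes are not specific to interneurons: Cck is also transcribed in many pyramidal neurons, and Reln is made early in development by Cajal-Retzius cells. DNase I cuts accessible DNA, so a cluster of cuts (a peak) marks an open promoter or distal element, and a short protected stretch within one (a footprint) can mark DNA covered by a bound protein. The tissue was taken whole, and a region open in few cells cannot be told apart from a region weakly open in many.

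Each library came with 2 peak lists. The stricter list of replicate 1 held 60071 peaks and that of replicate 2 held 70563, while the larger lists held 109563 and 121943. The signal of a peak is the authors' scaled value, which has no stated unit. It moved in whole steps of 0.00692 in replicate 1 and 0.00758 in replicate 2, so each value below can also be read as a number of steps. At open promoters of all genes the signal was higher in replicate 2 by a median log2 of 0.56 (SD 0.28 over genes). A gene was called open when both libraries had a stricter peak within 500 bp of any of its starts. By that rule 55.2% of all protein-coding genes were open, the share beside which the counts of cell type markers here stand. Of 6 markers of cortical excitatory neurons 3 were open, led by Camk2a with a mean signal of 2.92 ± 0.62 and Neurod2 with 2.33 ± 0.94 (SD, n = 2 each). Of 6 microglia markers, C1qa alone was open (0.583 ± 0.033), and of 6 endothelial and mural markers Rgs5 alone (0.615 ± 0.0090). Of 6 astrocyte markers 2 were open, Slc1a2 (1.52 ± 0.45) and Gfap (1.46 ± 0.069). Of 4 genes of GABA neurons in general, 1 was open. Of 6 oligodendrocyte lineage markers 3 were open, Olig1 (1.67 ± 0.58), Pdgfra (1.45 ± 0.41) and Olig2 (1.10 ± 0.12).

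Among the interneuron subtype genes, 3 of 10 were open in both libraries, Cck, Pvalb and Calb2, while 55.2% of all protein-coding genes were. With the larger lists Calb1 and Reln joined them, which gave 5 of 10 members, against 61.0% of all genes. Npy, Tac1 and Crh had a peak of the larger list in replicate 2 alone, 3 of 10 members, against 2.93% of all genes, and no member had one in replicate 1 alone (1.06% of all genes). Sst and Vip had no peak in any list of either library, 2 of 10 members, against 35.0% of all genes. Counted per library on the stricter lists, 3 members had a promoter peak in replicate 1 (56.0% of all genes) and 4 in replicate 2 (59.0%), the fourth being Calb1. Counted on the larger lists, 5 had one in replicate 1 (62.0%) and 8 in replicate 2 (63.9%). Where the members were open, their promoters were weak. The median of the mean signals was 1.06 over the 3 open members and 2.89 over all open genes, whose 10th percentile was 0.970.

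**Figure D1:**
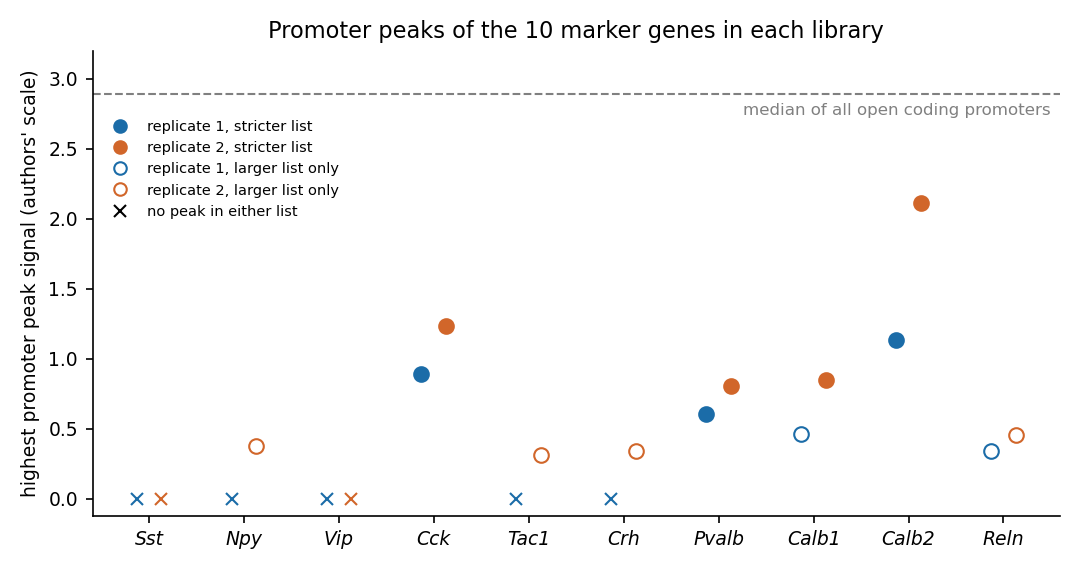
Highest peak signal (authors' scale, vertical axis) within 500 bp of any start of each of the 10 genes, 1 mark per library: filled for the stricter list, open for the larger list alone, a cross at 0 for no peak; the dashed line is the median of the mean signal over all open promoters (2.89). Calb2, Cck and Pvalb have filled marks in both libraries, Sst and Vip have none, and every mark lies under the line. The marks of Reln come from different starts, an internal one in replicate 1 and the gene record's own in replicate 2.

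Cck encodes cholecystokinin, and it was the 1 peptide gene of 6 with an open promoter, against 55.2% of all protein-coding genes. Its gene record lies at chr9:121489824-121495694 on the minus strand. Signal at the promoter peak was 0.892 in replicate 1 and 1.24 in replicate 2, or 129 and 163 steps (mean 1.06 ± 0.24, SD, n = 2). Both libraries were above the median peak of their own stricter list (0.830 in replicate 1 and 0.925 in replicate 2), yet the mean stood at the 12.1th percentile of open promoters. A footprint lay at -77 to -68 from the start in replicate 1 and at -77 to -70 in replicate 2, where negative positions are upstream. The other 2 footprints of each library lay at different places. The part of the peak that precedes the start is shown because it carries this footprint, with the bases in footprints of both libraries in capitals (chr9:121495695-121495815, minus strand, mm10).
Cck promoter: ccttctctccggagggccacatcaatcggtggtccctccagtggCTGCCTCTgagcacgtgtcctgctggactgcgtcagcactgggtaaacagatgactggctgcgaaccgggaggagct
The sequence holds 1 match to TGACG, the core of the cyclic AMP response element, at -47 to -43 on the opposite strand, and 1 match to the neurogenic E-box CAGATG at -30 to -25. Neither match had a base in a footprint of either library.

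Npy, Tac1 and Crh encode neuropeptide Y, the precursor of substance P and corticotropin-releasing hormone. At the Npy start (chr6:49822710-49829507, plus strand), replicate 2 had a larger-list peak of signal 0.379 (50 steps) from -214 to 21. At Crh (chr3:19693401-19695396, minus strand) replicate 2 had 1 of signal 0.341 (45 steps), at 196 to 444 downstream of the start. At Tac1 (chr6:7554879-7565834, plus strand) replicate 2 had 4 such peaks near the several starts, with signals of 0.288, 0.258, 0.227 and 0.311. All were below the median of the larger list of replicate 2 (0.599), and replicate 1 had no peak at any of these starts. The deposited positions with a false discovery rate (FDR) under 0.05, from the same libraries as the peaks, gave the same order of libraries. Within 500 bp of the gene record's start, Npy had 204 such positions in replicate 2, Tac1 had 383 and Crh had 235, with lowest FDR values of 0.00369, 0.00172 and 0.00238, and none of the 3 genes had any in replicate 1.

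The 120 bases before the RefSeq start of Npy (GRCm38.p6, chr6:49822590-49822709, plus strand) are shown for a gene whose promoter met the peak call in 1 library, with the match to the GC box GGGCGG in capitals.
Npy promoter: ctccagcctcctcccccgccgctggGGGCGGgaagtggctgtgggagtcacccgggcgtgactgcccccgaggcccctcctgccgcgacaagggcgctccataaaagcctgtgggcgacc
No footprint of either library lay within 500 bp of a start of Npy or Crh. Tac1 had 2 footprints in replicate 2 and none in replicate 1. The one near the RefSeq start of Tac1 spanned chr6:7555017-7555024 and covered the whole of a TGACG match at -43 to -39 from that start.

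Sst and Vip encode somatostatin and vasoactive intestinal peptide. Sst lies at chr16:23889573-23890958 on the minus strand and has 1 annotated start, and Vip lies at chr10:5639218-5647617 on the plus strand and has 2. Neither gene had a peak of either list, a footprint, or a position with an FDR under 0.05 within 500 bp of a start, in either library. The absence of a call does not show closed chromatin in every cell. The RefSeq window of Sst holds the full cyclic AMP response element TGACGTCA, the palindrome bound by CREB that was characterised in the rat Sst gene. It lies at -48 to -41 from the RefSeq start at 23890844. That start is 114 bp downstream of the annotated start used for the peak counts, so the element lies 66 to 73 bp downstream of the annotated one. The site is shown with 10 bases on either side and the match in capitals (chr16:23890875-23890902, minus strand). The 120 bases before the RefSeq start of Vip (chr10:5639098-5639217, plus strand) are shown with a TGACG core and a TATA box, TATAAA, in capitals.
Sst site: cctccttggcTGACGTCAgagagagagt
Vip promoter: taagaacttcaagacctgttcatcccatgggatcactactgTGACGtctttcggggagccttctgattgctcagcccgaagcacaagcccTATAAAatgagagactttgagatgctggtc
The TGACG of Vip lies at -79 to -75, and the TATA box printed lies at -30 to -25. These elements were picked for display after the motif matches were seen.

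The 3 calcium-binding protein genes differed in where they were open. Calb2 encodes calretinin, found in many Vip cells. It lies at chr8:110137502-110168210 on the minus strand and had the strongest promoter of the members. Its signal was 1.13 in replicate 1 and 2.11 in replicate 2, or 164 and 279 steps (mean 1.62 ± 0.69, SD, n = 2), at the 25.5th percentile of open promoters. Replicate 2 was thus higher by 0.90 on the log2 scale, more than at 90.6% of open promoters, and by 1.70-fold in steps, while the median over open promoters was 1.34-fold. Footprints covered -84 to -40 in replicate 1 and -84 to -52 and -49 to -43 in replicate 2, and a shorter footprint near the start lay at -18 to -9 in replicate 1 and -19 to -7 in replicate 2. The lowest FDR within 500 bp of the start was 1.56e-16 in replicate 1 and 9.0e-21 in replicate 2, the lowest of the 10 genes. The upstream part of the peak is shown because it holds the longest footprints at any member promoter, with bases in footprints of both libraries in capitals (chr8:110168211-110168380, minus strand, mm10).
Calb2 promoter: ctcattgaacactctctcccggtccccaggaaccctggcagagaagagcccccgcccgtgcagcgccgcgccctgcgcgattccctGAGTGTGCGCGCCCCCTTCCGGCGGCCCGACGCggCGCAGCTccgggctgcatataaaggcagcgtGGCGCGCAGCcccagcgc
Of these 170 bases, 50 lay in footprints of both libraries. A TATA box TATAAA at -32 to -27 lay between the footprints and had no footprint base in either library.

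Pvalb encodes parvalbumin, whose level in rodent cortex rises over the postnatal weeks. The gene record lies at chr15:78191114-78206400 on the minus strand, and no peak, footprint or FDR position was found within 500 bp of its own start at 78206400. The open start was the internal coding start at 78204237, 2163 bp downstream. There the signal was 0.609 in replicate 1 and 0.803 in replicate 2, or 88 and 106 steps (mean 0.706 ± 0.14, SD, n = 2), at the 4.49th percentile of open promoters. Footprints lay at -46 to -23 and -103 to -92 from the internal start in replicate 1, and at -34 to -23, -46 to -38 and -99 to -85 in replicate 2, so that all 5 overlapped one of the other library. The upstream part of this peak is shown because the choice of start decides the call, with bases in footprints of both libraries in capitals (chr15:78204238-78204354, minus strand, mm10).
Pvalb internal promoter: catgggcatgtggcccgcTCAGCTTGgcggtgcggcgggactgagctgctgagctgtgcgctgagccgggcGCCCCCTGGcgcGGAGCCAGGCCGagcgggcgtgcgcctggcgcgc
With the gene record's own start alone, 2 of 10 members (Cck and Calb2) were open by the stricter lists, against 49.5% of all genes. By the larger lists 3 were (Cck, Calb1 and Calb2), against 55.1% of all genes.

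Calb1 encodes calbindin, which is found in many Sst cells and also in upper-layer pyramidal neurons. At its start (chr4:15881264-15908064, plus strand) the stricter lists held a peak in replicate 2 of signal 0.849 (112 steps) and none in replicate 1, where the larger list held a peak of 0.464 (67 steps). The lowest FDR within 500 bp was 0.000493 in replicate 1 and 2.3e-10 in replicate 2. The single footprint of replicate 1, at -101 to -94, overlapped none of the 3 of replicate 2, which lay at -44 to -38, -24 to -15 and -3 to 3. The upstream part of the replicate 1 peak is shown in lower case throughout, since no base of it lay in footprints of both libraries (chr4:15881091-15881263, plus strand, mm10).
Calb1 promoter: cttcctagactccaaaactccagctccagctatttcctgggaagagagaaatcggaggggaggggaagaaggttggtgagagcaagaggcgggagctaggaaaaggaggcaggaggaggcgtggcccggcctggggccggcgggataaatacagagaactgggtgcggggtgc

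Reln encodes reelin, a large secreted glycoprotein that guides neuronal layering and later acts at synapses. The gene spans 460.2 kb at chr5:21884454-22344702 on the minus strand. Its own start had no stricter peak, and the larger list of replicate 2 held 2 peaks there, of 0.455 and 0.379, while replicate 1 held none. The gene record's start was thus among 4 of 10 member starts with a larger-list peak in replicate 2 alone (Npy, Tac1, Crh and Reln), against 3.10% of all genes. Within 500 bp of that start, 6 positions had an FDR under 0.05 in replicate 1 and 159 in replicate 2. The peaks that counted Reln as open on the larger lists lay within 500 bp of internal starts of transcripts annotated as non-coding or as targets of nonsense-mediated decay. Near 21893896 the signal was 0.339 in replicate 1 and 0.387 in replicate 2, and at 22134669 it was 0.235 and 0.243. Both values of each pair were low. The peak near 21893896 did not cover that start. It lay at -558 to -415 from it in replicate 1 and at -564 to -373 in replicate 2, partly outside the window of 500 bp. The mean of the gene's highest promoter signals stood at the 2.41th percentile of promoters open on the larger lists. That mean belongs to no single start, since it joins 0.339 near 21893896 in replicate 1 with 0.455 near the gene record's start in replicate 2. The stronger of these peaks is shown as the deposited region of replicate 2 (chr5:21894269-21894460, minus strand, mm10), and the 120 bases before the RefSeq start (chr5:22344706-22344825, minus strand) are shown for contrast with GC boxes in capitals.
Reln internal peak: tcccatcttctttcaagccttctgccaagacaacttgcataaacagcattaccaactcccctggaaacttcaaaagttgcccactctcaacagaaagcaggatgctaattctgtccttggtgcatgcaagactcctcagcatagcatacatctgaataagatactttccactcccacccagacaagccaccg
Reln promoter: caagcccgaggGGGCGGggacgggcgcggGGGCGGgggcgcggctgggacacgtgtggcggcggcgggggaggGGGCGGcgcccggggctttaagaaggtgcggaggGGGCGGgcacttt
The full RefSeq window of Reln held 6 GC boxes, of which 4 are in the bases shown.

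The median CpG content at the members' starts was close to that at the starts of all genes. The ratio of observed to expected CpG within 500 bp of the gene record's start had a median of 0.551 over the 10 members and 0.552 over all genes. When genes were ranked into 10 equal groups by this ratio, the share open by the stricter lists climbed from 5.24% in the lowest group to 91.9% in the highest. Reln had a ratio of 1.01 and lay in the highest group. Sst (0.577), Npy (0.626) and Tac1 (0.607) lay in a group of which 74.1% were open. These 4 genes were not open by the stricter lists, nor was Calb1 (0.698), in a group of which 84.0% were open. Cck (0.260), Pvalb (0.157) and Calb2 (0.526) were open, in groups of which 18.2%, 10.8% and 56.3% were. Pvalb's ratio is that of its own start, not of the internal start that was open. Vip (0.287) and Crh (0.396) were not open, in a group of which 32.3% were.

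**Figure D2:**
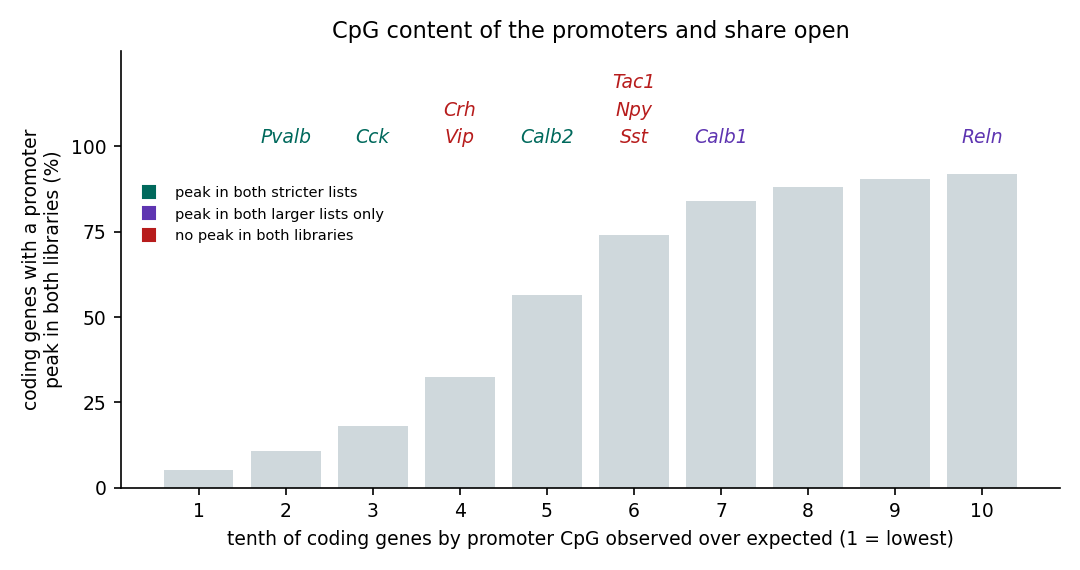
Bars give the share of all protein-coding genes with a stricter promoter peak in both libraries (percent) in each of 10 equal groups by CpG observed over expected at the gene record's start, and the members are named above their group, coloured by their own calls over all starts, so that Reln and Pvalb take theirs from internal starts. The share climbs from 5.24% to 91.9%, with Cck and Pvalb called in low groups and Reln not called by the stricter lists in the highest.

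Positions with an FDR under 0.05 were counted without a peak call. They come from the same libraries as the peaks, so agreement between the 2 is not separate support. Within 500 bp of the gene record's start, 4 of 10 members had such a position in replicate 1 (Cck, Calb1, Calb2 and Reln), against 57.4% of all genes, and 7 had one in replicate 2, against 59.4%. The median number of positions was 0 over members and 255 over all genes in replicate 1. In replicate 2 it was 219.5 over members and 322 over all genes. Npy, Tac1 and Crh, with positions in replicate 2 alone, were also the members with larger-list peaks in that library alone. Pvalb had no such position at the gene record's start. Within 500 bp of its internal start at 78204237 it had 254 in replicate 1 and 253 in replicate 2. The lowest FDR there was 0.000104 in replicate 1 and 2.57e-05 in replicate 2.

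Footprints were found at the promoters of 5 members in replicate 1, against 59.5% of all genes, and at 6 in replicate 2, against 61.4%. The same 5 genes, Cck, Pvalb, Calb1, Calb2 and Reln, had them in both libraries (58.2% of all genes), and Tac1 had them in replicate 2 alone. A footprint of one library overlapped one of the other at 3 members, Cck, Pvalb and Calb2, against 54.0% of all genes. Those were the 3 members with stricter peaks in both libraries. At Calb1 the libraries' footprints lay at different places near the same start. At Reln they lay at different starts, an internal one in replicate 1 and the gene record's own in replicate 2, so no start of Reln had footprints of both.

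**Figure D3:**
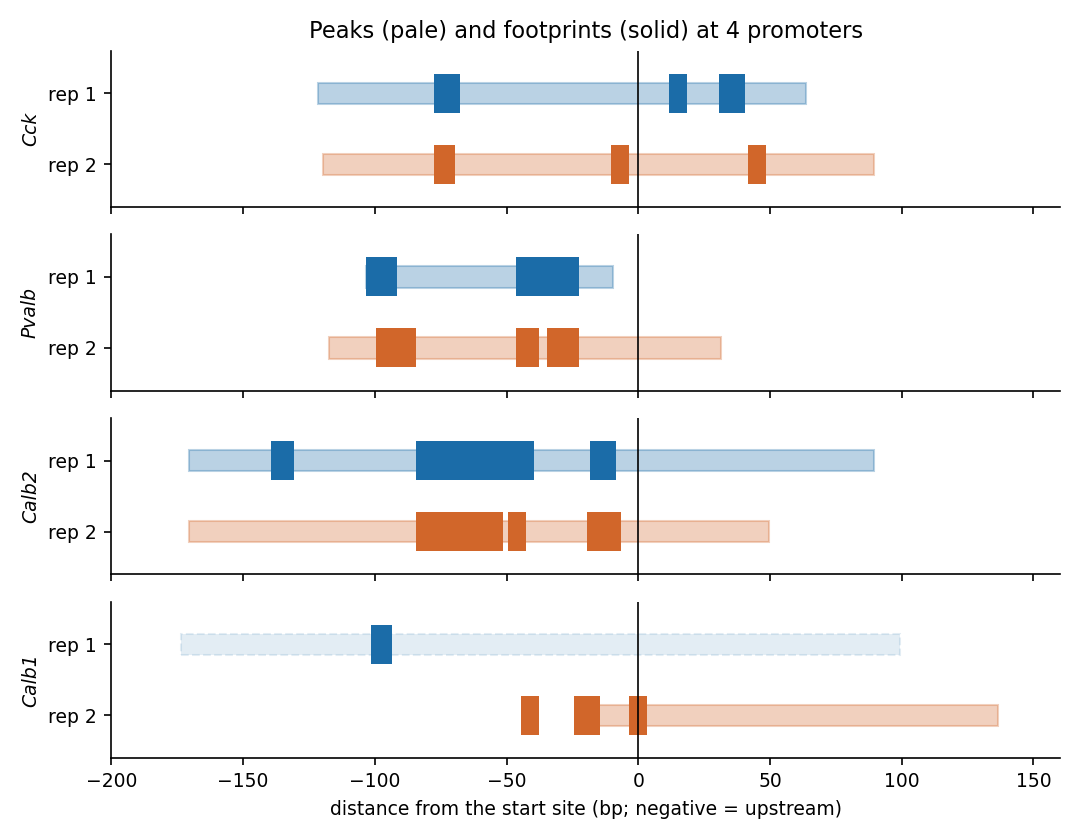
Footprints (solid) and peaks (pale, dashed outline for the larger list alone) of each library at the promoters of Cck, Pvalb, Calb2 and Calb1 by distance in bp from the start, which for Pvalb is the internal one. Footprints of the libraries overlap at Cck, Pvalb and Calb2, and those of Calb1 do not.

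Distal elements were found around nearly all members, including those with no promoter peak. A distal peak had its midpoint over 1 kb from every annotated start of any gene, and a shared one was a stricter peak of replicate 1 that overlapped one of replicate 2. Shared distal peaks lay in the windows of 9 of 10 members, against 73.8% of all genes, and numbered 25, all distinct. Cck and Reln had 5 each, Calb2 had 4, Sst had 3, Vip, Crh and Pvalb had 2 each, and Npy and Calb1 had 1 each. Tac1 had none in its window of 111.0 kb (26.2% of all genes had none), nor with the larger lists, and neither library had a stricter peak anywhere in that window. Per 100 kb of window, the median was 1.79 over members and 1.14 over all genes, but with flanks of 100 kb the order turned, 1.33 over members and 1.40 over all genes. Cck had 4.72 peaks per 100 kb, at the 96.8th percentile of genes. Calb2 had 3.06 (87.1th) and Sst 2.96 (86.2th), while Reln had 0.892 over its long window (39.1th).

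**Figure D4:**
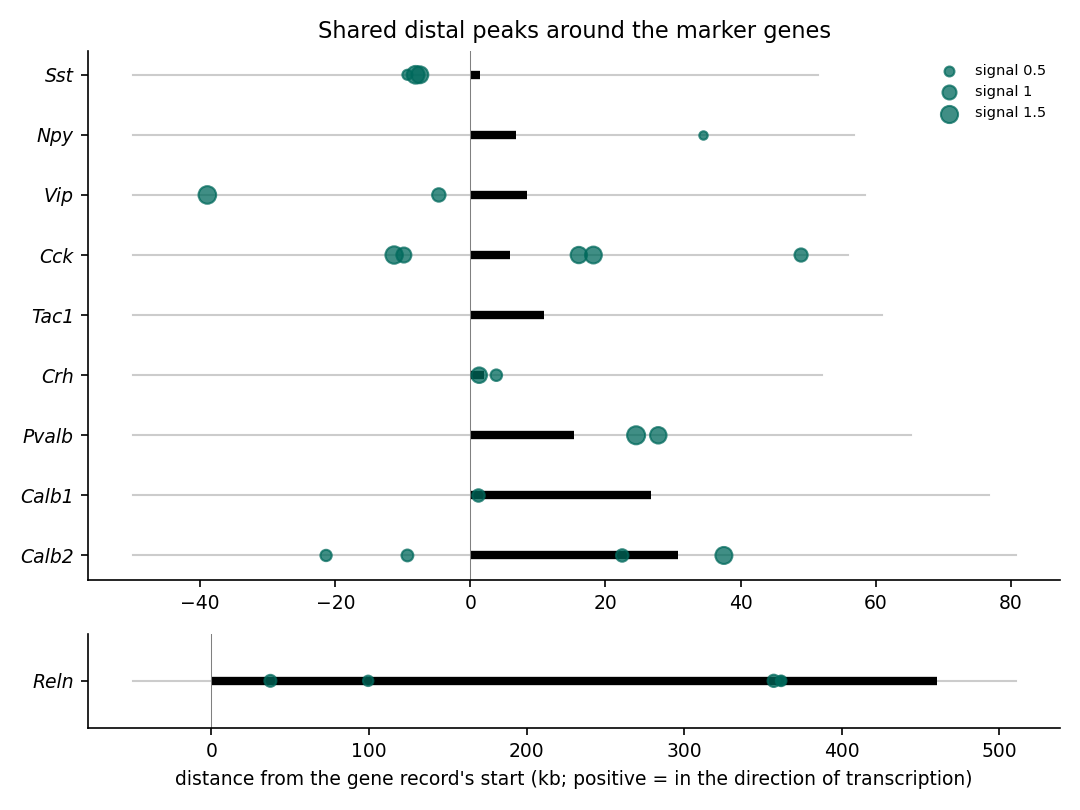
Shared distal peaks around each member by distance from the gene record's start in kb, with gene bodies as bars and circle size giving the mean signal over both libraries. Sst has 3 peaks within 10 kb upstream, Cck has peaks on both sides, and Tac1 has none.

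The 25 peaks spanned weak and strong elements. Their mean over libraries ranged between 0.365 and 1.66, with a median of 0.891, against 0.897 over all 31956 shared distal peaks, and 12 of the 25 were above that overall median. Replicate 2 was higher at 19 of 25 and lower at 6, and it was higher at 80% of all shared distal peaks. By place, 14 of the 25 lay between genes (48.7% of all shared distal peaks), 8 in introns (46.2%) and 3 in exons (5.14%). Of the 25, 8 lay within the body of the member itself, and for 20 the nearest start of a protein-coding gene was the member's own. Here and below, the nearest gene was sought among protein-coding genes alone. A footprint lay in 23 of the 25 in replicate 1 (92.0%, against 93.1% of all shared distal peaks) and in 22 in replicate 2 (88%, against 94.2%).

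Around Sst, all 3 shared peaks lay upstream between genes, close to one another. At -8.10 kb the signal was 1.14 in replicate 1 and 2.06 in replicate 2, at -7.48 kb it was 1.20 and 1.72, and at -9.32 kb it was 0.560 and 0.485. The peak at -8.10 kb is shown because it was the strongest around a gene with no promoter peak (chr16:23898961-23899160, minus strand, mm10), with bases in footprints of both libraries in capitals. Around Vip, the peak at -38.9 kb had 1.35 in replicate 1 and 1.83 in replicate 2 but lay in an intron of Myct1 and nearest to that gene. The peak nearest to Vip itself, at -4.67 kb, had 0.650 and 1.20 and is shown likewise (chr10:5634462-5634634, plus strand, mm10).
Sst distal peak: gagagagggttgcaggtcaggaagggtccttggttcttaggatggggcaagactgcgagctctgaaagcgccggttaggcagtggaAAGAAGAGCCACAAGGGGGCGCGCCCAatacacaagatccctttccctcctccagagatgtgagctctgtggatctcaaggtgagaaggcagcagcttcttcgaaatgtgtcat
Vip distal peak: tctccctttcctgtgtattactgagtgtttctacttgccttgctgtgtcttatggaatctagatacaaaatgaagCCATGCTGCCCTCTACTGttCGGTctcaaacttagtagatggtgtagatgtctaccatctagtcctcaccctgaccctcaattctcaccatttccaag
In the Sst peak 27 of 200 bases lay in footprints of both libraries, and in the Vip peak 22 of 173 did.

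Around Crh, the stronger shared peak lay in the coding exon of the gene itself, 1.31 kb downstream of the start, with 1.07 in replicate 1 and 1.39 in replicate 2. A weaker one at 3.84 kb, in an exon of Trim55, had 0.588 and 0.766. Around Npy, the single shared peak at 34.4 kb had 0.297 and 0.432, at the 2.41th percentile of shared distal peaks. Both strongest peaks are shown as the elements present where the promoter was called in at most 1 library, with bases in footprints of both libraries in capitals (Crh, chr3:19693961-19694220, minus strand; Npy, chr6:49857041-49857120, plus strand, mm10).
Crh exon peak: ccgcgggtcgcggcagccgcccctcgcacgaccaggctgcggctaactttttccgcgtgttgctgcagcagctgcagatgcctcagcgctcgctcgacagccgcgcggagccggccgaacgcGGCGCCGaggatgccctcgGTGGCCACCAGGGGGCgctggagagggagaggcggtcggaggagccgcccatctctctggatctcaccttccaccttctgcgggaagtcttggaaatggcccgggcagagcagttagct
Npy distal peak: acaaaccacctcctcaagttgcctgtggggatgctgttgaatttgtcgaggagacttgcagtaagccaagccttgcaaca
The Npy peak had 1 footprint in replicate 1 and none in replicate 2.

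Around Cck, the strongest shared peaks lay at -11.3 kb, with 1.38 in replicate 1 and 1.72 in replicate 2, and at 18.2 kb, with 1.42 and 1.49. Both were stronger on average than the Cck promoter itself. Around Pvalb, the peaks at 24.5 kb (1.69 in replicate 1 and 1.64 in replicate 2) and 27.8 kb (1.35 and 1.43) both lay nearest to Ift27. Around Calb2, the peak at 37.5 kb had 1.22 and 1.73 and lay nearest to Gm21964, and the intron peak at 22.5 kb had 0.816 and 0.773. Around Calb1, the only shared peak lay in an intron 1.19 kb downstream of the start, with 0.630 and 0.963. Around Reln, the 5 shared peaks were all in introns, led by those at 356.8 kb (0.623 and 0.925) and 37.4 kb (0.761 and 0.705) downstream. The ratio between libraries was widest among the 25 at the Reln intron peak at 99.5 kb, with 0.353 in replicate 1 and 0.758 in replicate 2, a log2 difference of 1.10, while the difference in signal was wider at other peaks such as that of Sst at -8.10 kb.

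**Figure D5:**
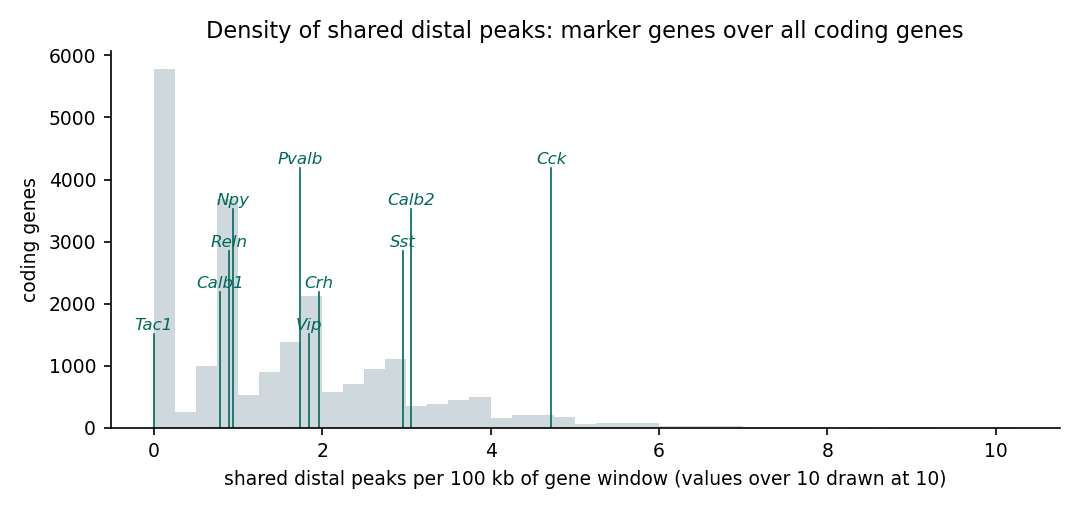
Grey bars count all protein-coding genes by shared distal peaks per 100 kb of window, with values over 10 drawn at 10, and each vertical line marks a member, its height serving the label alone. Cck (4.72), Calb2 (3.06) and Sst (2.96) stand highest of the members, and Tac1 stands at 0.

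Most peaks called in a single library were those of replicate 2, around the members as in the whole genome. In the 10 windows, promoters included, replicate 1 had 34 stricter peaks, of which 2 had no counterpart in the stricter list of replicate 2 (5.88%, against 15.3% of all peaks of replicate 1). Replicate 2 had 46, of which 14 had none in that of replicate 1 (30.4%, against 27.9% of all peaks of replicate 2), spread over 7 members. Npy, Cck and Pvalb had 3 of these each. Of the 14, 11 lay on a peak of the larger list of replicate 1, as did both of replicate 1 on that of replicate 2. With the larger lists on both sides, shared distal peaks numbered 44, and Npy then had 6, Calb2 9 and Reln 10.

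Motif matches were sought on both strands in RefSeq promoter windows, from 250 bases before to 50 after a start, and 7 of the 10 members had a window, which were Sst, Npy, Vip, Cck, Tac1, Pvalb and Reln. These 7 members had 8 windows, and of the 7 only Pvalb and Reln are not peptide genes. TGACG was present in 4 of the 7, Cck, Sst, Tac1 and Vip, and in 20.8% of 32851 windows of all genes. Members are counted as genes here, and the shares of all genes count windows. The full TGACGTCA, which contains TGACG, was present in Sst alone, and in 1.79% of all windows. The TATA box was found in Vip (13.6% of all windows), the GC box in Npy, Tac1 and Reln (35.7%), the box CCAAT in Npy and Tac1 (37.4%), the E-box CAGATG in Cck and Tac1 (17.2%), and the homeodomain core TAATTA in Tac1 (5.29%). The AP-1 site TGANTCA (7.81% of all windows), the MEF2 core (3.69%), the CTCF motif (0.557%), the nuclear factor I palindrome (0.0365%) and the RE1 element (0.0122%) had no match in the members' windows. Of all these matches, the Tac1 core in replicate 2 was the only one with a base in a footprint. The windows of Sst, Vip, Npy and Reln held no footprint of either library, so no match in them could have had one.

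In the distal peaks, matches to the motif of CTCF, a zinc-finger protein that anchors chromatin loops, were found in 5 of 25 (20%), against 10.6% of all shared distal peaks. Only 1 fixed pattern of 12 bases was searched, so a peak without a match may still hold a site that departs from it. The matches lay in 1 peak each near Sst, Vip, Cck, Crh and Calb2, and every one overlapped footprints of both libraries. Across the genome, 3101 of 3401 shared distal peaks with a CTCF match (91.2%) had that match in footprints of both libraries. The 5 sites are shown with 10 bases on either side and the match in capitals, chosen after their footprints were seen (mm10; Sst chr16:23898429-23898460 and Crh chr3:19694054-19694085 on the minus strand, Vip chr10:5600265-5600296, Cck chr9:121477444-121477475 and Calb2 chr8:110130667-110130698 on the plus strand).
Sst CTCF site: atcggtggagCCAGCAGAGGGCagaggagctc
Vip CTCF site: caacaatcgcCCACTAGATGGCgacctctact
Cck CTCF site: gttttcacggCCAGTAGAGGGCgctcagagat
Crh CTCF site: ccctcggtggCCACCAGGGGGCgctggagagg
Calb2 CTCF site: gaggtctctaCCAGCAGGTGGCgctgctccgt
All 12 matched bases lay in footprints of both libraries at Vip, Crh and Calb2. At Cck, 12 did in replicate 1 and 10 in replicate 2, and at Sst, 4 and 12. The Vip site is the one in the Myct1 intron, and the Crh site is within the Crh coding exon.

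Among the other motifs, the E-box CAGATG was matched in the most distal peaks. This E-box, read by neurogenic basic helix-loop-helix factors, was found in 8 of 25 (32%, against 24.0% of all shared distal peaks), near Sst, Crh, Cck (3 peaks) and Reln (3 peaks). CCAAT was found in 4 (16.0%, against 22.7%), TGACG in 3 (12%, against 8.73%), the GC box in 2 (8.0%, against 7.29%) and the TATA box in 1 (4.0%, against 7.59%). With 25 peaks, 1 peak more or fewer moves such a share by 4.0 percentage points. The full cyclic AMP response element, the AP-1 site, the homeodomain core, the MEF2 core, the nuclear factor I palindrome and the RE1 element had no match in them.

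Receptors of the peptides were partly open. Of 17 receptors and binding proteins, 6 were open by the stricter lists, against 55.2% of all genes, and 10 by the larger, against 61.0%. They were led by Vipr1 (1.36 in replicate 1 and 2.08 in replicate 2), a receptor for vasoactive intestinal peptide, and Sstr2 (1.26 and 1.86), a somatostatin receptor. Npy1r (1.22 and 1.28), Tacr1 (1.18 and 1.71) and Crhr1 (0.747 and 1.02), receptors for neuropeptide Y, substance P and corticotropin-releasing hormone, were also open and were named after their values were seen. Tacr3 was the remaining open gene (0.457 and 0.402). Other receptors of the same peptides were not open by the stricter lists, namely Sstr1, Sstr3, Sstr4, Npy2r, Npy5r, Vipr2, Cckbr and Crhr2, and Sstr5, Cckar and Crhbp had no peak in any list. All 7 genes of reelin signalling were open, against 55.2% of all genes. Fyn (4.02 in replicate 1 and 7.37 in replicate 2) and Crkl (4.29 and 6.65) were highest. The reelin receptors Lrp8 (mean 1.56 ± 0.47) and Vldlr (1.12 ± 0.10) and the adaptor Dab1 (1.71 ± 0.30; SD, n = 2 each), again named after their values were seen, all stood above every promoter value of Reln.

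Other genes of interneuron subtypes were also partly open. Of 15, 5 were open by the stricter lists, against 55.2% of all genes, and 9 by the larger, against 61.0%. They were led by Cnr1 (1.10 in replicate 1 and 1.64 in replicate 2), the cannabinoid receptor of Cck cells, and Kcnc1 (1.25 and 1.38), a potassium channel of fast-spiking Pvalb cells. No difference between these genes and the members was tested.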

How the data were processed

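The members and gene lists were chosen with earlier results of these data known. The deposited peak lists gave 1 signal value per peak, made by the authors from each library's own filtered alignments on mm10, per the file descriptions deposited with the libraries; replicates were not pooled. What aligner and callers were used, in which versions, and how signal was scaled are all not given in the sources used here. Each footprint in the deposited lists carried a p-value of 0.01, so footprints could not be ranked, and the deposited FDR lists held positions under 0.05.

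All signal values were whole multiples of a step (100% within 0.01). The depth is not stated; if a step were 1 cut per M tags, the libraries would hold 145 M and 132 M tags. With 2 libraries from animals numbered separately, SD values cover 2 points and join animal and technical spread. Peaks were assigned to GENCODE M21 starts on GRCm38.p6, the assembly of mm10, with an overlap of at least 1 bp; a gene's promoter signal was the highest peak in each library. Shared peaks took the signal of the highest overlapping peak of replicate 2. Reads were not assigned to parental alleles. Promoter windows came from RefSeq (GRCm38.p6), and annotated UTR bases were left out of printed peaks. Named genes were the members, the 2 genes of highest mean promoter signal of each list, open or never-open genes where these were at most 3, and the 2 strongest distal peaks of each member, with other names marked. A gene that this rule takes is not reported here. Interval code was checked on simulated data. Python 3.11.15, pandas 2.3.3 and pysam 0.24.0 were used. Alternatives were the larger lists, other windows and flanks, the stronger 50% of peaks and each library alone.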

Additional observations from a re-analysis of the deposited data

How the results depend on the processing

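Members with an open promoter numbered 3, and 5 with the larger lists and with a window of 2000 bp, which adds Calb1 and Crh. They numbered 2, without Pvalb, with the stronger 50% of peaks and with the gene record's own start, and with 1 library left out between 3 and 4. The share of all genes was 55.2%, against 61.0% with the larger lists, 59.1% with 2000 bp, 49.5% with the gene record's own start and 48.9% with the stronger 50% of peaks, and between 56.0% and 59.0% with 1 library left out. Members with promoter footprints in both libraries numbered 5, but 3 when the footprints had to overlap, and between 5 and 6 with 1 library left out. The 25 shared distal peaks became 44 with the larger lists, 11 with the stronger 50% and 39 with flanks of 100 kb, and between 26 and 35 with 1 library left out. The members' median density of 1.79 per 100 kb became 2.78 with the larger lists (2.40 over all genes), 0.844 with the stronger 50% (0.636) and 2.84 with flanks of 20 kb (1.03). With 1 library left out it was between 1.79 (replicate 1 alone, 1.55 over all genes) and 2.95 (replicate 2 alone, 1.85). The cause of these shifts was not tested beyond the number of peaks or starts that each setting admits. No paired analysis was possible because both libraries belong to 1 group. The depth of each library is not stated, and whether starts with no call, such as those of Sst and Vip, were closed or open below the threshold cannot be told apart.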
